A study of Mus musculus with 3 samples.

Results

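The Igf1-high Abi3bp-positive cells are 1425 single cells of the mouse femoral fracture callus that carried RNA for Aspn, Igf1 and Abi3bp together and that fell outside a contractile and a tendon gate. Of 30888 deposited barcodes over 3 libraries, they were 409 of 6587 cells at day 10 and 1016 of 9680 cells at day 14 after fracture, counting in each library the cells with 500 to 5000 genes, at most 10% mitochondrial and at most 5% hemoglobin UMIs, and no UMI of Ptprc, the gene of the leukocyte antigen CD45. A UMI is a tag that marks 1 captured RNA molecule. A member had at least 10 Aspn and at least 10 Igf1 UMIs per 10000 UMIs of the cell and at least 2 Abi3bp UMIs. It also had under 10 UMIs per 10000 of Acta2, Tagln and Actg2 combined, and UMIs of fewer than 3 of the 6 genes Chodl, Angptl7, Ptx4, Egfl6, Cilp2 and Thbs4. The cells had been given the working name of stromal progenitors, with Igf1, Abi3bp, Cxcl12, Sfrp2 and Mfap4 as markers. The cells were thus chosen by the measured levels of these genes, which are given as a description only.

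The callus came from untreated C57BL/6 mice with a femoral fracture, both sexes were used according to the methods, and age and the number of mice per library are not given in the sources used here. Callus cells were freed with collagenase after the marrow had been cleaned away, and live cells negative for CD45, CD31 and TER119 were sorted for droplet sequencing of the 3′ ends of transcripts. There was 1 library per day (days 7, 10, and 14), so no statistical test was possible, and a difference between days cannot be told apart from a difference between libraries, mice or sorts. The day 7 library went against its sort, since 6284 of its cells within the limits had at least 2 Ptprc UMIs and 447 had none. The same rule found 2 cells there, with 97 Igf1 UMIs between them, and day 7 is not used further.

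Igf1 encodes insulin-like growth factor 1, a secreted ligand that signals through the receptor Igf1r and that is held or released by IGF binding proteins. In fracture callus it is known as a growth signal for cartilage and bone-forming cells. Abi3bp encodes an extracellular matrix protein, and Aspn encodes asporin, a small leucine-rich proteoglycan of periosteum, tendon and cartilage. Cxcl12 is a chemokine of stromal niches, Sfrp2 a secreted antagonist or modulator of Wnt signaling, and Mfap4 a protein of elastic microfibrils. In the GRCm38 build with the GENCODE M21 annotation, Igf1 lies on chromosome 10 (87858265 to 87937042, plus strand), Abi3bp on chromosome 16 (56477878 to 56690135, plus strand), Cxcl12 on chromosome 6 (117168535 to 117181367, plus strand), Sfrp2 on chromosome 3 (83766321 to 83774316, plus strand) and Mfap4 on chromosome 11 (61485431 to 61488900, plus strand).

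Members were a larger share of the day 14 library than of the day 10 library. They made up 6.21% of the cells without Ptprc at day 10 (95% Clopper-Pearson interval, 5.64% to 6.82%) and 10.5% at day 14 (9.89% to 11.1%). Among cells with at least 10 Aspn UMIs per 10000 (2174 and 4191 cells, called Aspn-high here) the shares were 18.8% (17.2% to 20.5%) and 24.2% (23.0% to 25.6%). These intervals, like those that follow, cover counting error only. The members were sequenced to similar depth at both days, with a median of 14136 UMIs at day 10 and 14252.5 at day 14. No barcode was a member in both libraries, and 35 barcodes were deposited in both. Members were read against the 1765 and 3175 other Aspn-high cells and against 4 further classes. The nearest cells (1038 and 2031) passed every part of the rule except the Igf1 or the Abi3bp limit. The contractile cells (630 and 1083) had at least 10 UMIs per 10000 of the 3 smooth muscle genes, the tendon gate (97 and 61) had at least 3 of the 6 tendon-gate genes, and the Aspn-low cells numbered 4413 and 5489.

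Igf1 stood at 2648 CPM in the members at day 10 (95% Poisson interval, 2606 to 2690), and the day 14 level was 2574 CPM (2548 to 2600). Here CPM is the UMI total of a gene in a class of cells, scaled to 1000000 UMIs of that class. Per cell the Igf1 level ran from the limit of 10 up to 129 per 10000 at day 10 and 137 at day 14, with medians of 22.3 and 20.4. Members held 47.4% of all Igf1 UMIs of the cells without Ptprc at day 10 and 52.3% at day 14, while they held 5.17% and 9.48% of all UMIs. The rest lay mostly in other Aspn-high cells, at 1146 and 1900 CPM in the tendon gate and 479 and 798 CPM in the contractile cells. The Acan- and Col2a1-high chondrocytes had 75.3 and 83.2 CPM, and the Ibsp-high cells 26.7 and 44.3 CPM. Rgs5-high cells, which hold the pericyte marker Rgs5, had 5.33 and 56.9 CPM. Abi3bp was at 1151 and 1148 CPM in the members but at 2890 and 2381 CPM in the tendon gate, so the members were not its highest class.

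The limits cut through a continuum. There were 47 members at day 10 and 118 at day 14 with 10 to 12 Igf1 UMIs per 10000, at 1102 and 1100 CPM, and 46 and 116 cells otherwise within the rule at 8 to 10 per 10000, at 895 and 886 CPM. Just inside and just outside this limit Mfap4 was at 130 and 159 CPM at day 10, and at 275 and 242 CPM at day 14. Sfrp2 was at 174 against 84.2 CPM at day 10 and at 212 against 336 CPM at day 14, so its order changed between the libraries.

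Of the 3 markers that the rule did not use, Sfrp2 and Mfap4 were at least 2-fold higher in members than in the nearest cells in both libraries, and Cxcl12 was not. Cxcl12 was at 111 CPM (102 to 120) in members at day 10 and at 168 CPM (162 to 175) at day 14, against 50.4 and 92.2 CPM in the nearest cells. Contractile cells had 116 CPM of Cxcl12 at day 10, no less than the members, and 108 CPM at day 14. A single day 10 member carried 130 of the 650 Cxcl12 UMIs, and without that cell the day 10 level was 88.7 CPM, below the contractile cells. Sfrp2 was at 177 CPM (166 to 188) and 259 CPM (251 to 268) in members, against 57.3 and 119.5 CPM in the nearest cells and 555 and 297 CPM in the tendon gate. Mfap4 was at 190 CPM (179 to 202) and 269 CPM (261 to 278), against 75.4 and 129 CPM in the nearest cells and 1569 and 1306 CPM in the tendon gate. Over the nearest cells the log2 ratios of Sfrp2 and Mfap4 were 1.62 and 1.33 at day 10 and 1.12 and 1.06 at day 14. The Cxcl12 ratio was 1.14 at day 10, or 0.82 without the cell with most Cxcl12, and 0.87 at day 14.

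**Figure D1:**
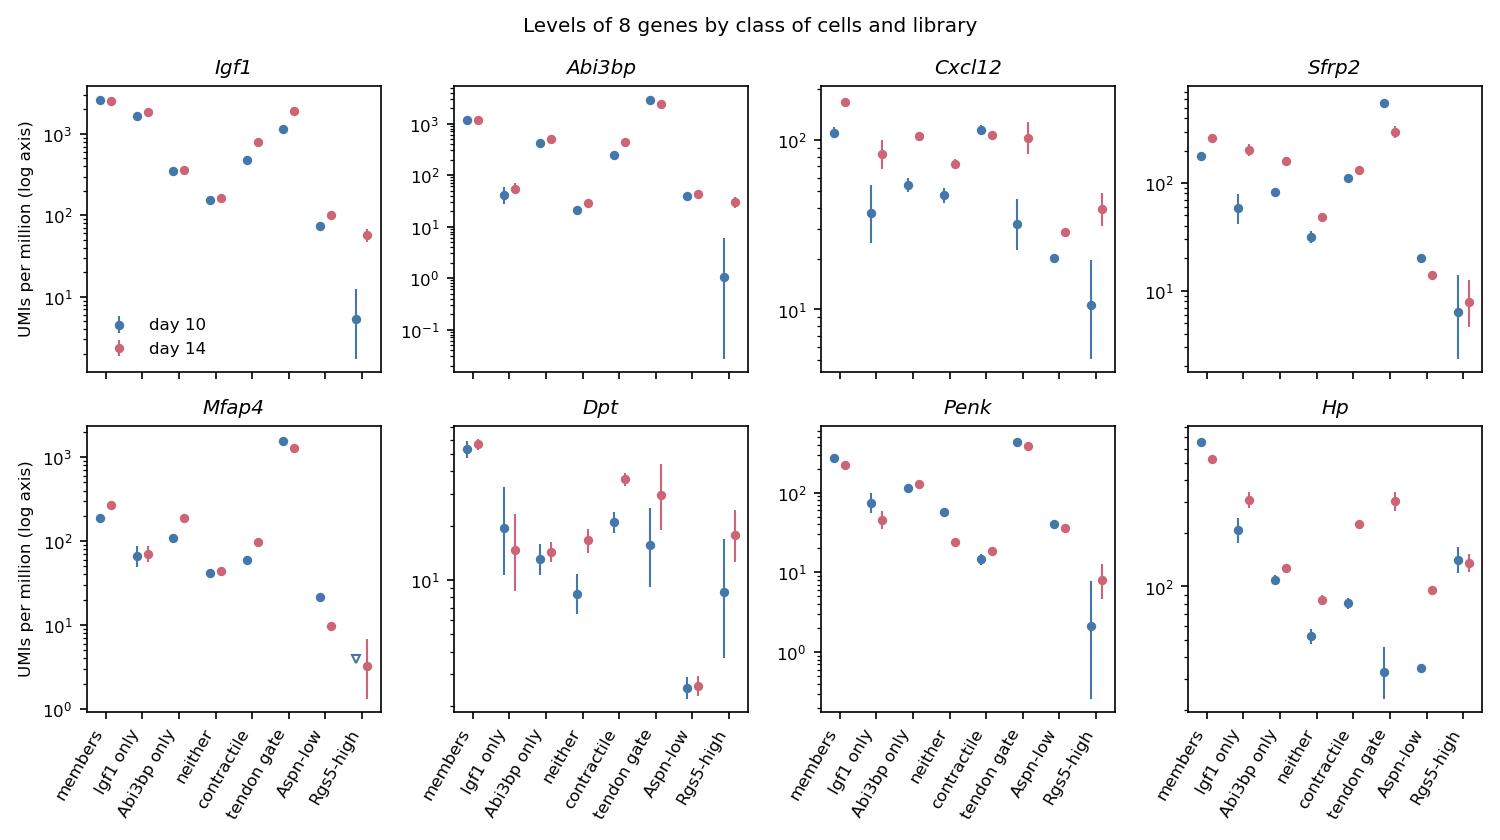
CPM (log axis, scale differing by panel) of 8 genes in the members and 7 other classes of cells, at day 10 (blue) and day 14 (red). Points are class totals, bars are 95% Poisson intervals, and the open triangle marks the upper bound where no UMI was seen. "Igf1 only", "Abi3bp only" and "neither" are the nearest cells by the limit they met. Mfap4 is highest in the tendon gate, at 1569 and 1306 CPM, and Dpt and Hp are highest in the members.

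Each marker was found in a minority of members once depth was equalized. With every cell thinned to 5000 UMIs (401 and 960 members, leaving out 8 and 56 shallower ones), Cxcl12 was detected in 23.9% of members at day 10 (19.8% to 28.4%) and 33.5% at day 14 (30.6% to 36.6%). Sfrp2 was detected in 29.7% (25.2% to 34.4%) and 36.7% (33.6% to 39.8%), and Mfap4 in 35.7% (31.0% to 40.6%) and 43.4% (40.3% to 46.6%). Unthinned, the shares were 42.1% and 50.8% for Cxcl12, 45.0% and 48.1% for Sfrp2, and 56.0% and 57.9% for Mfap4. Background from free RNA was lower. Ibsp-high osteoblast-lineage cells, with median depths of 18565.5 and 17865 UMIs, had thinned shares of 2.04% and 3.09% for Cxcl12, 1.29% and 2.67% for Sfrp2, and 2.25% and 1.47% for Mfap4. Of the thinned members, 3.74% at day 10 and 10.9% at day 14 had UMIs of all 3 markers, and 38.4% and 31.6% had none.

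**Figure D2:**
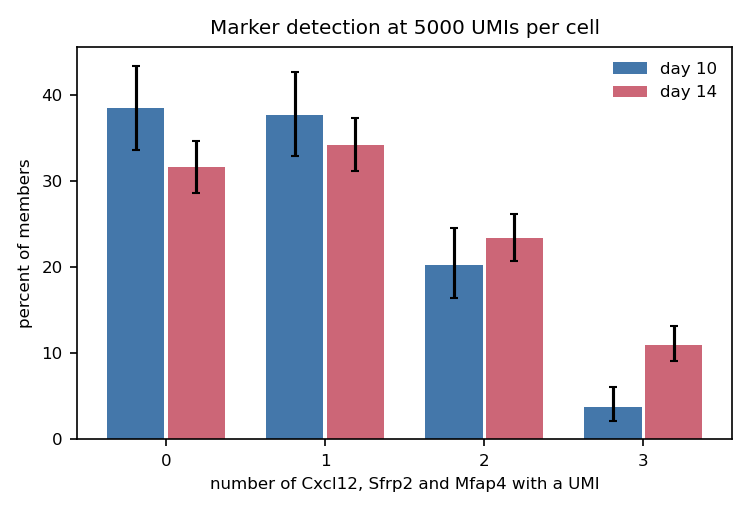
Share of members (percent) with UMIs of 0, 1, 2, or all 3 of Cxcl12, Sfrp2 and Mfap4 after each cell was thinned to 5000 UMIs, at day 10 (401 cells) and day 14 (960 cells). Bars start at 0 and error bars are 95% Clopper-Pearson intervals. Members with none of the 3 outnumber members with all 3 in both libraries, at 38.4% against 3.74% and 31.6% against 10.9%.

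Which limit a nearest cell failed went along with different genes. Nearest cells that met the Igf1 limit alone (60 and 124 cells) had Igfbp5 at 749 and 1372 CPM, close to the 633 and 1383 CPM of the members, while those that met the Abi3bp limit alone (485 and 1049 cells) had 301 and 487 CPM. Mfap4 ran the other way, at 66.5 and 70.0 CPM in the Igf1-only cells and 109 and 188 CPM in the Abi3bp-only cells. Tnmd, a transmembrane protein of tendon cells, was at 521 and 512 CPM in members and at 67.4 and 50.9 CPM in cells that met neither limit. Dpt was no higher than 19.4 CPM in any of these 3 groups, against 53.0 and 56.3 CPM in members. The Igf1-only cells were shallower (median 12281 and 8921 UMIs), and the part of depth in meeting an Abi3bp limit set in UMIs was not tested.

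Against all other Aspn-high cells, 13 genes were at least 2-fold higher in members in both libraries (0.238% of the 5471 tested) and 26 were at least 2-fold lower (0.475%), with the genes of the rule left out. A gene counted as tested when it had at least 20 CPM in either class in both libraries. The median log2 ratio over all of them was -0.04 at day 10 and -0.00 at day 14. Penk, which encodes proenkephalin, was at 275 CPM (262 to 289) against 72.6 CPM at day 10 and 220.1 CPM (212 to 228) against 66.5 CPM at day 14, for log2 ratios of 1.92 (1.83 to 2.02) and 1.73 (1.66 to 1.80). The tendon gate had more Penk than the members, at 428 and 389 CPM. Hp, the hemoglobin-binding protein haptoglobin, was at 660 against 82.1 CPM and at 525 against 161 CPM, for log2 ratios of 3.01 (2.93 to 3.08) and 1.71 (1.66 to 1.75). Neutrophils also express Hp, and the cells with at least 2 Ptprc UMIs at day 14 had 992 CPM. Leaving out cells with S100a8 and S100a9 at a combined 10 or more per 10000 removed 0 of 409 members at day 10 and 3 of 1016 at day 14. The count of higher genes was then again 13, and the part of neutrophil RNA in the Hp level was not tested.

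The pan-tissue fibroblast genes gave 3 of the higher genes, of 11 tested from a list of 18. They were Penk, Dpt and Col14a1, and none of the 11 was at least 2-fold lower. Against the tendon gate none of 11 tested was called in either direction. Dpt, which encodes the collagen-binding matrix protein dermatopontin, was at 53.0 CPM (47.3 to 59.2) against 14.9 CPM at day 10 and 56.3 CPM (52.5 to 60.3) against 23.0 CPM at day 14. Col14a1, a collagen that associates with fibril surfaces, was at 443 against 127 CPM and 271 against 114 CPM. The list's median log2 ratio was 0.68 at day 10 and 0.41 at day 14, and 8 of its 11 genes were above 0 in both libraries, a state that 35.3% of all genes tested shared. Dpp4 and Pi16, markers of the fibroblasts that other tissues hold in their outer layers, were near the floor, at 0.17 and 0 CPM and at 2.90 and 1.52 CPM. Slc40a1, the iron exporter ferroportin, was at 364 against 113 CPM and 202 against 88.3 CPM. Fbn2, the microfibril protein fibrillin 2, was at 390 against 178 CPM and 505 against 211 CPM. Cpxm2, Matn4 and Svep1 had log2 ratios from 1.01 to 1.39. Cpxm2 was higher still in the tendon gate, at 255 and 302 CPM against 146 and 225 CPM in members.

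Few genes in the lists of small leucine-rich proteoglycans, elastic fiber genes and collagens passed 2-fold. Matrix genes outside those lists did, such as Dpt, Matn4 and Svep1. Of 8 small leucine-rich proteoglycans tested, none passed 2-fold in both libraries against all other Aspn-high cells, and Ogn, which encodes osteoglycin, came closest at 2356 against 1164 CPM and 1918 against 1116 CPM. Of 17 elastic fiber and microfibril genes, Fbn2 alone was called, and Fbln5, an elastic fiber assembly protein, had log2 ratios of 1.23 and 0.87. The fibrillar collagens Col1a1, Col1a2 and Col3a1 had log2 ratios between -0.11 and 0.08. Of the 15 fibrillar and network collagens tested, Col14a1 was called higher. In that list 10 were below 0 in both libraries, a state that 43.0% of all genes tested shared. Outside it Col4a1 (log2 -2.94 and -4.41), Col4a2 (-2.41 and -3.63) and Col18a1 (-1.60 and -1.59) were called lower. Against the nearest cells alone, 23 genes were at least 2-fold higher (0.425% of 5412) and 33 lower (0.610%). The higher ones took in Ogn (log2 1.08 and 1.07), Fbln5 (1.73 and 1.16) and Tnmd (1.64 and 1.49).

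**Figure D3:**
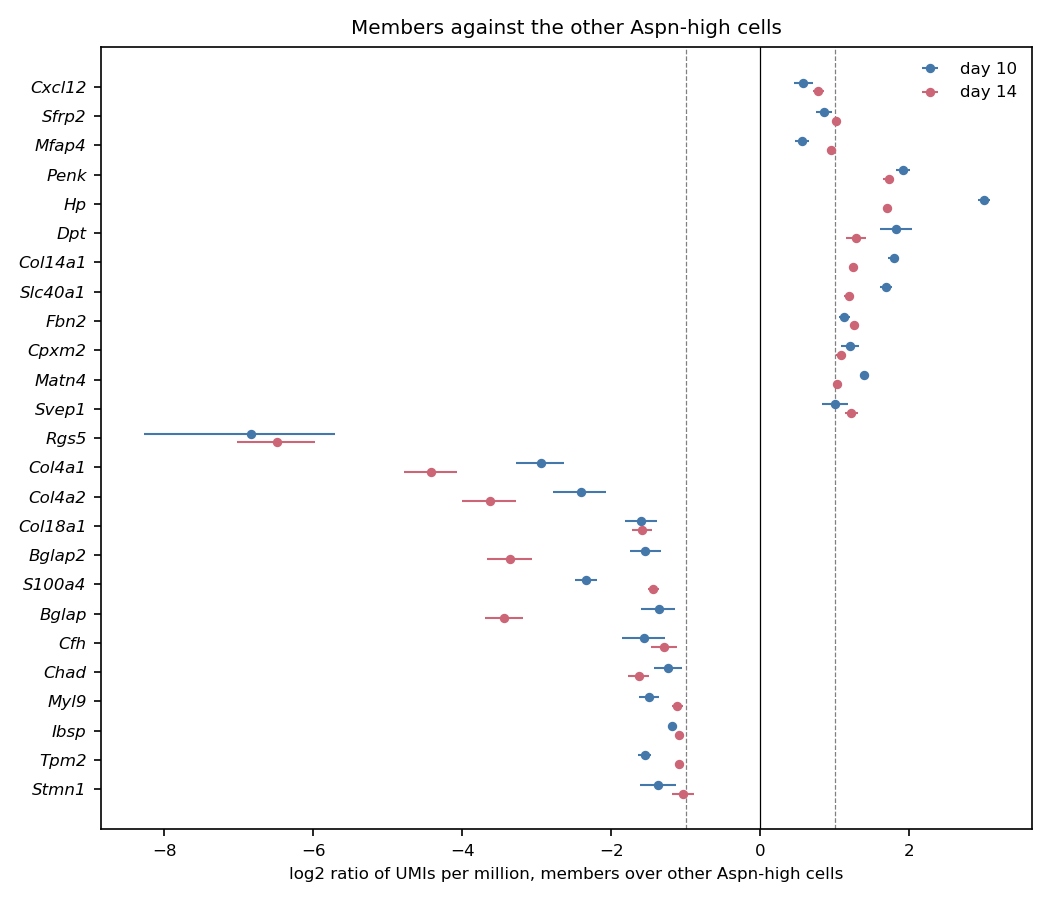
Log2 ratio of CPM in members over other Aspn-high cells for the 3 unused markers and the 22 genes named by size of difference, at day 10 (blue) and day 14 (red). Bars are 95% exact binomial intervals for counting error, and dashed lines mark 2-fold. Cxcl12, Sfrp2 and Mfap4 sit between 0.56 and 1.03, and Rgs5 is lowest at -6.83 and -6.48.

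Of 9 osteoblast genes tested from a list of 14, 4 were at least 2-fold lower in both libraries and none higher, and the median log2 ratio was -0.59 at day 10 and -0.96 at day 14. They were Ibsp, the bone matrix protein bone sialoprotein, at 1629 against 3692 CPM and 1662 against 3532 CPM, the osteocalcin genes Bglap and Bglap2, and Sp7, the osteoblast transcription factor osterix, at 20.1 against 47.0 CPM and 9.76 against 39.0 CPM. Bglap and Bglap2 are near-identical copies whose reads may be split between them, and they were at 29.8 and 35.5 CPM in members at day 10. A single member held 81 of the 175 Bglap UMIs there. At day 14 Bglap was at 8.93 CPM in members and 100.2 CPM in Rgs5-high cells. Ibsp at day 14 was at 1501 CPM in contractile and 2105 CPM in Rgs5-high cells, and the part of free RNA in the Ibsp and Bglap levels was not tested. Runx2, the earlier osteoblast regulator, was at 77.7 and 55.2 CPM in members against 93.9 and 83.5 CPM. Against the nearest cells the same 4 genes were called lower, with list medians of -0.53 and -1.14. Against the contractile cells Bglap2 alone of 9 was called lower, with medians of -0.10 and -0.20. There 3 were above and 4 below 0 in both libraries. Ibsp was at 5344 and 4734 CPM in the nearest cells and 1310 and 1501 CPM in the contractile cells.

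Of 13 chondrocyte genes tested none was at least 2-fold different from all other Aspn-high cells in both libraries, and the median log2 ratios were 0.14 and -0.04. Col2a1, the main cartilage collagen, was at 5352 CPM in members at day 10 and 2286 CPM at day 14, against 1218 and 1760 CPM in Rgs5-high cells and 46126 and 38549 CPM in chondrocytes. Sox9, the chondrocyte transcription factor, was at 456 and 237 CPM, against 24.5 and 36.8 CPM in Rgs5-high cells. Against the tendon gate, 47 genes were higher (0.836% of 5621) and 138 lower (2.46%). Against the contractile cells, 64 genes were higher (1.16% of 5537) and 53 lower (0.957%), and 8 of 13 chondrocyte genes were among the higher ones, with a list median of 2.14 at day 10 and 1.22 at day 14. Against the nearest cells only Hapln1, a link protein of cartilage matrix, was called, at 239 against 634 CPM and 136 against 373 CPM. Of the 13 genes, 11 were below 0 in both libraries in that comparison, as were 36.9% of all genes tested. The list medians there were -0.51 and -0.37.

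Rgs5, the pericyte marker, was at 1.02 and 2.21 CPM in members, against 116 and 198 CPM in the other Aspn-high cells. Those include the contractile cells that the rule excluded, at 248 and 387 CPM, and the nearest cells had 40.6 and 94.2 CPM. Col4a1 and Col4a2, the basement membrane collagens, were at 14.3 and 11.9 CPM at day 10 and at 4.78 and 4.64 CPM at day 14, against 57.2 to 110 CPM. In the nearest cells Col4a1 was at 43.9 and 59.2 CPM and Col4a2 at 28.3 and 35.0 CPM. Myl9 and Tpm2 were called lower too, but the rule had excluded contractile cells, and against the nearest cells Myl9 was not lower (log2 0.27 and 0.35). From a list of 11 cell cycle genes 3 were tested in each comparison. Against the nearest cells Top2a and Birc5 were called lower. Against all other Aspn-high cells all 3 were below 0 in both libraries, as were 43.0% of all genes tested. Birc5 alone was called there, at 7.16 against 30.9 CPM and 6.09 against 20.1 CPM. Ccnd1, a cyclin of the G1 phase outside the rule for named genes, was at 12.8 against 50.8 CPM and 13.8 against 47.4 CPM.

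The skeletal stem and progenitor markers did not set the members apart. None of the 11 tested from a list of 19 was at least 2-fold different in both libraries, and the median log2 ratio was -0.33 at day 10 and -0.35 at day 14. Pdgfra, the platelet-derived growth factor receptor of mesenchymal cells, was higher at both days, at 87.5 against 51.9 CPM and 89.9 against 53.7 CPM. Postn, the matricellular protein periostin, was lower at both, at 2080 against 3461 CPM and 2190 against 2785 CPM. Thy1 was at 21.3 and 50.5 CPM against 66.8 and 72.6 CPM, and Itgav at 44.8 and 39.8 CPM against 71.1 and 60.7 CPM. Lepr, which marks marrow stromal cells, was at 2.73 and 2.08 CPM, and Adipoq was at 0 and 0.14 CPM. The cells are therefore called by their genes here and not as progenitors.

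Of 13 transcription factors of the limb mesenchyme tested, none was called. Of the 13, 10 were above 0 in both libraries, against 35.3% of all genes tested, with median log2 ratios of 0.21 and 0.31. Osr2 and Osr1 are zinc finger factors of connective tissue. Osr2 was at 30.7 against 16.0 CPM and 38.4 against 15.4 CPM. Osr1 was at 29.3 against 12.6 CPM and 23.8 against 13.7 CPM. Prrx1, a general marker of limb mesenchyme, was at 239 against 257 CPM and 235 against 218 CPM.

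Igf1r, the receptor of Igf1, did not differ by 2-fold. It was at 38.7 CPM (33.8 to 44.1) in members at day 10 and 40.3 CPM (37.1 to 43.7) at day 14, against 43.8 and 40.9 CPM in the other Aspn-high cells, and the intervals of both log2 ratios (-0.39 to 0.03 and -0.16 to 0.11) included 0. Members held 3.43% and 7.29% of Igf1r UMIs, below their 5.17% and 9.48% of all UMIs. Irs1, an adaptor downstream of the receptor, was at 68.7 against 57.4 CPM and 73.0 against 50.3 CPM. Of 7 binding proteins and their proteases tested none was called in both libraries. Igfbp4, which binds and restrains IGFs, was at 963 against 515 CPM and 1368 against 818 CPM. Igfbp5, a matrix-bound IGF binding protein, was at 633 against 406 CPM and 1383 against 543 CPM, for log2 ratios of 0.64 (0.58 to 0.69) and 1.35 (1.32 to 1.38). Pappa, the protease that cleaves Igfbp4, was at 20.1 against 30.9 CPM and 26.4 against 27.1 CPM. Among other growth factors, Mdk (midkine) was at 765 against 368 CPM and 948 against 505 CPM, while Pdgfa was at 42.4 against 114 CPM and 52.0 against 102 CPM.

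Between the libraries, 36 genes were at least 2-fold higher in members at day 14 (0.632% of 5694 tested) and 71 were at least 2-fold lower (1.25%), over a median log2 ratio of 0.04. In the other Aspn-high cells of the same libraries 15 of these genes were higher (0.263%) and 51 lower (0.896%), and they shared 11 of the 36 and 44 of the 71. The 3 unused markers were higher at day 14 without reaching 2-fold, with log2 ratios of 0.60 for Cxcl12, 0.55 for Sfrp2 and 0.50 for Mfap4, and Cxcl12 was at 0.92 without the day 10 cell described above. This rise was not particular to the members. All 3 were also higher at day 14 in the other Aspn-high cells, with a median log2 ratio of 0.39 against 0.55 in members. By the levels given earlier, they were higher at day 14 in the nearest cells too. Of 12 stem and progenitor markers 2 were called higher and 1 lower. Ly6a, the gene of the surface antigen Sca-1, was at 65.8 CPM at day 10 against 207 CPM at day 14, with intervals of 59.4 to 72.7 and 199 to 214 and a log2 ratio of 1.65, against 0.62 in the other Aspn-high cells. Thy1, the surface antigen CD90, had a log2 ratio of 1.24 (0.97 to 1.53) against 0.12. Both genes were also higher at day 14 in the nearest cells, with Ly6a at 82.6 and 197 CPM and Thy1 at 34.9 and 57.9 CPM. In the contractile cells they were not, with Ly6a at 216 and 212 CPM and Thy1 at 116 and 96.8 CPM. Grem1, a BMP antagonist, was lower at 29.3 and 11.6 CPM.

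Of 7 IGF binding proteins and their proteases 2 were called higher at day 14 and none lower, and of 5 IGF ligands, receptors and adaptors 2 were called lower. Igfbp5 had a log2 ratio of 1.13 (1.08 to 1.18) and Igfbp6, which prefers IGF2, of 1.36 (1.26 to 1.46), from 162 to 416 CPM. Igf2 was at 120 CPM at day 10 against 46.0 CPM at day 14, and Irs2 at 37.0 and 17.6 CPM. Of 15 fibrillar and network collagens and 8 small leucine-rich proteoglycans none was called between the days. Outside that collagen list Col9a1 and Col9a3 were called lower, at log2 -1.47 and -1.42, as were Col2a1 and Col9a2. Of 17 elastic fiber genes 1 was higher (Mfap5) and 1 lower (Eln), and of 16 matricellular genes 2 were higher and 2 lower. Mfap5, a microfibril glycoprotein, was at 210 and 504 CPM. Lrrc15, a membrane protein of activated fibroblasts, was at 43.0 and 106 CPM in members, a log2 ratio of 1.30, while the other Aspn-high cells had 154 and 148 CPM. Ccn3, a matricellular protein, was at 22.3 and 77.4 CPM. Col10a1, the collagen of hypertrophic cartilage, was at 61.2 and 202 CPM, but Rgs5-high cells had 77.8 and 490 CPM. A single day 14 member held 392 of the 2917 Col10a1 UMIs, and without it the level was 175 CPM.

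Of 13 chondrocyte genes 5 were at least 2-fold lower at day 14 and 1 higher, with a median log2 ratio of -0.94, against 1.25% lower over all genes. In the other Aspn-high cells 4 of the 13 were lower and 1 higher, with a median of -0.67. Col2a1 had a log2 ratio of -1.23 in members, -1.24 in the nearest cells, 0.21 in contractile cells and -0.26 in chondrocytes. Cnmd, the anti-angiogenic cartilage protein chondromodulin, was at 1196 CPM at day 10 against 451 CPM at day 14. Of 12 immediate early genes 4 were lower, namely Atf3, Nr4a1, Zfp36 and Dusp1, and 11 of 12 were below 0, as were 43.3% of all genes tested. The other Aspn-high cells also had 4 of the 12 lower and 11 below 0, with a median of -0.71 against -0.59 in members. Cxcl1, a neutrophil chemokine, was at 116 and 19.2 CPM, and Ptgs2, the inducible cyclooxygenase, at 213 and 61.5 CPM, with log2 ratios in the other Aspn-high cells of -2.15 and -1.90.

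**Figure D4:**
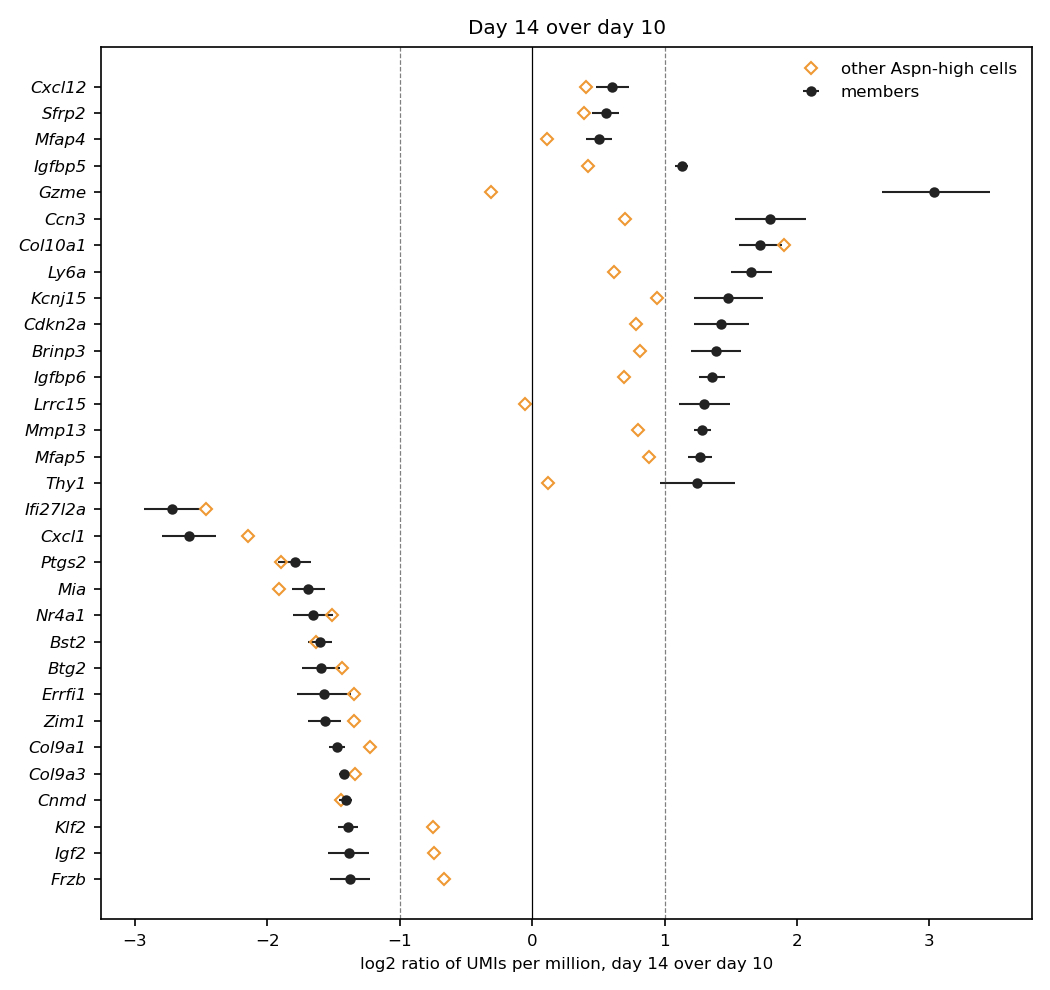
Log2 ratio of CPM at day 14 over day 10 for 31 genes, in members (black, with 95% exact binomial intervals for counting error) and in the other Aspn-high cells (open orange diamonds). Dashed lines mark 2-fold. Gzme is 3.03 in members and -0.31 in the others, Lrrc15 is 1.30 and -0.05, and the lower genes such as Ptgs2 (-1.79 and -1.90) lie close together in both.

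Hematopoietic RNA at day 14 lay mostly in 1 cell. The 13 hematopoietic markers summed to 18.1 CPM in members at day 10, with 6 of the 13 at 0, and to 437 CPM at day 14, with 1 at 0. Ptprc is among the 13 and was at 0 in both libraries by the rule. Of the 6317 UMIs at day 14, 5691 were in a single cell of 28495 UMIs and 4731 genes, and without it the sum was 43.4 CPM. The 5 list genes called higher at day 14 were S100a8, S100a9, Camp, Ngp and Lyz2. In all, 3 of 1016 members at day 14 and 0 of 409 at day 10 had S100a8 and S100a9 at a combined 10 per 10000, and without such cells 31 genes were called higher at day 14 in place of 36. The 7 endothelial markers summed to 3.24 and 6.92 CPM, with 2 and 4 of them at 0, and Cdh5, a defining endothelial gene, was at 0.17 and 0 CPM. The 6 erythroid markers summed to 1.36 and 1.45 CPM, and the 7 pericyte markers to 131 and 78.0 CPM.

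Members varied widely in Postn, which the rule did not use. The members of each library were split into 3 equal groups by Postn, whose median ran from 5.68 to 34.5 per 10000 at day 10 and from 5.93 to 36.4 at day 14. Between the highest and the lowest group, 40 genes were at least 2-fold higher in both libraries (0.737% of 5426) and 31 were lower (0.571%). The groups are ranges of 1 gene and not types, these values are a description, and the genes named below were picked from those called. Of 4 tendon genes tested 3 were among the higher ones, namely Scx, Tnmd and Kera. Of 15 fibrillar and network collagens, 4 were higher and none lower. Of the 15, 14 were above 0 in both libraries, as were 40.9% of all genes tested. Outside that list Col2a1, Col9a1, Col9a2 and Col9a3 were called lower, with log2 ratios between -1.87 and -1.33. Lrrc15 was at 10.8 CPM in the lowest and 88.4 CPM in the highest group at day 10, and at 37.9 and 202 CPM at day 14. Tnc, the matricellular protein tenascin C, was at 139 and 421 CPM at day 10 and at 180 and 520 CPM at day 14. Tnmd was at 235 and 829 CPM and at 328 and 686 CPM, and Scx, the tendon transcription factor scleraxis, at 55.8 and 154 CPM and at 79.5 and 173 CPM.

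Of 13 chondrocyte genes tested in this split, 5 were at least 2-fold lower in the highest Postn group and none higher, with median log2 ratios of -0.62 and -1.11. Of the 13, 11 were below 0 in both libraries, as were 26.4% of all genes tested. Acan, the main cartilage proteoglycan, was not among the lower genes, at 2092, 2129 and 2003 CPM from the lowest to the highest group at day 10 and 1235, 1353 and 1425 CPM at day 14. Sox9 was at 478, 439 and 453 CPM and at 258, 247 and 208 CPM. Matn4, a cartilage matrix adaptor, was at 1768 CPM in the lowest and 449 CPM in the highest group at day 10, and at 1679 and 488 CPM at day 14. Col2a1 was at 8572 and 2901 CPM and at 3563 and 1042 CPM. Mgp, an inhibitor of calcification, was at 15059 and 4215 CPM and at 10084 and 2462 CPM. Igf1 differed little between these groups, at 2740, 2610 and 2600 CPM from lowest to highest at day 10 and at 2621, 2643 and 2461 CPM at day 14. The median depth of the lowest and highest group was 13683 and 15666.5 UMIs at day 10 and 13587 and 14856.5 UMIs at day 14.

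**Figure D5:**
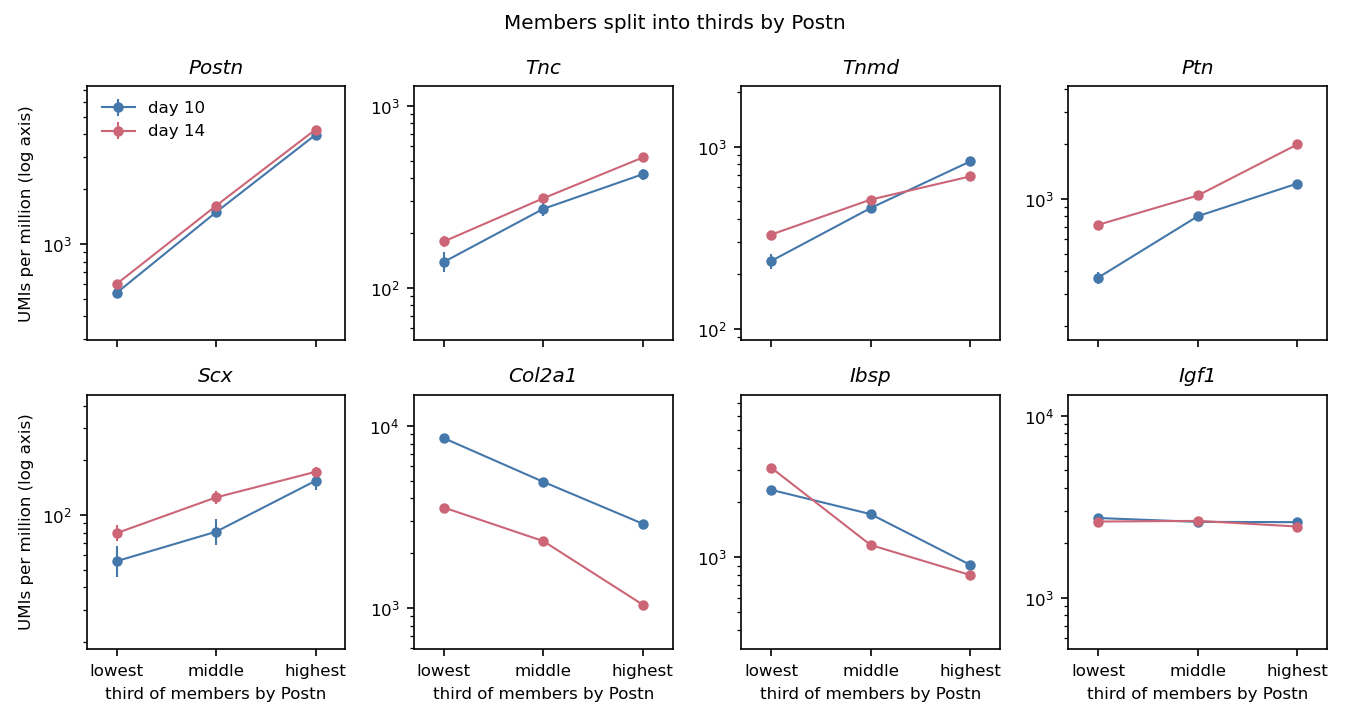
CPM (log axis, each panel spanning the same number of folds) of 8 genes in members split into 3 equal groups by Postn, at day 10 (blue) and day 14 (red), with 95% Poisson intervals. Tnc, Tnmd, Ptn and Scx are higher, and Col2a1 and Ibsp lower, in each higher group of both libraries. Igf1, for which the rule set a lower limit, stays between 2461 and 2740 CPM.

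Split by Igf1 instead, 15 genes were at least 2-fold higher in the highest group in both libraries (0.276% of 5439) and 10 were lower (0.184%). Dpt was at 18.4 CPM in the lowest and 127 CPM in the highest group at day 10, and at 34.7 and 93.4 CPM at day 14. Cxcl12 was at 56.6 and 118 CPM and at 119 and 251 CPM, though at day 10 the middle group had more, at 159 CPM. The day 10 groups held 114, 318 and 218 Cxcl12 UMIs from lowest to highest. A single day 10 member held 130 of the 650 Cxcl12 UMIs, so the day 10 order depends on that cell. Igfbp5 was at 440 and 1068 CPM and at 918 and 2089 CPM, and Fgf7, a growth factor for epithelial cells, at 22.8 and 63.4 CPM and at 39.8 and 101 CPM. Hp was at 360 and 947 CPM and at 306 and 817 CPM. The lower genes took in Col2a1, at 7243 and 3188 CPM and at 3335 and 1560 CPM, and Hapln1, at 344 and 116 CPM and at 217 and 92.1 CPM.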

How the data were processed

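The authors sequenced 3 single-cell 3′ libraries and deposited unnormalized UMI counts of 32285 genes in each cell. Per the labels, reads were aligned to mm10 with Cell Ranger 3.0, and the matrix headers name 3.1.0. No test was possible with 1 library per day. For each class and library the UMIs of a gene were added up, divided by the class total and given as CPM. Levels carry exact Poisson intervals, ratios exact binomial intervals and shares Clopper-Pearson intervals, all at 95% and for counting error only. A gene was called at 2-fold, in the same direction in both libraries where classes were compared. Cells without Ptprc within the limits held 113557963 UMIs at day 10 and 152463431 at day 14. The members and the gene lists were chosen with earlier results of these data known.

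Genes were named by these rules: the markers and rule genes, the genes of 31 lists, and up to 15 called genes in each direction with the largest change, ranked by the smaller ratio where both libraries counted, with at least 50 CPM where higher. Other genes were picked after their values were seen, as were Ccnd1 and those of the groups by Postn and Igf1. Unnamed gene models and mitochondrial genes were counted but not named. Doublets were not called. The limit of 5000 genes stands in for a caller, and leaving out the deepest 10% of cells was an alternative. Thinning drew 5000 UMIs per cell without replacement (seed 1). All 413 named and list genes matched GENCODE M21 (GRCm38) by identifier. Work was done in Python 3.11.15 with numpy 2.4.6, scipy 1.17.1 and pandas 2.3.3, and the ratio and interval code was tested on simulated data.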

Additional observations from a re-analysis of the deposited data

Results flagged for a closer look

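Gzme, which encodes a granzyme, was lower in members than in the other Aspn-high cells at day 10 (log2 -2.09, 9.21 against 39.1 CPM) and higher at day 14 (log2 1.26, 75.4 against 31.5 CPM), so the direction turned between the libraries. Those other cells include the contractile cells that the rule excluded, at 99.4 and 67.8 CPM. The nearest cells had 3.65 and 11.2 CPM, below the members in both libraries. The day 10 level of members rests on 54 UMIs in 15 cells, of which 1 cell held 27. At day 14, 125 cells held 1089 UMIs. The neighboring gene Gzmd had a log2 ratio of day 14 over day 10 of 2.62 in members and of -1.10 in the other Aspn-high cells, with 23 UMIs in 10 members at day 10 and 348 UMIs in 53 members at day 14, 116 of them in 1 cell. Neither difference was tested. Gzmc, Gzmd and Gzme are close paralogs, so reads may be split between them.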

How the results depend on the processing

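The share of members moved with each limit: 5.26% at day 10 and 9.72% at day 14 with cells thinned to 5000 UMIs, 8.49% and 14.3% with an Igf1 limit of 5, 3.52% and 5.44% with one of 20, and 5.37% and 8.81% with an Abi3bp limit of 4 UMIs. At day 14 it was 11.2% with 1 Abi3bp UMI, 11.4% without the deepest 10% of cells and, in an alternative chosen after seeing the data, 9.88% with Abi3bp at 2 per 10000. The day 14 share was the higher one under every setting run. The 13 higher and 26 lower genes against the other Aspn-high cells became 81 and 416 with a floor of 10 UMIs and 7 and 7 at 100 CPM. The higher count was 21 after thinning, 23 with an Igf1 limit of 20 and 23 against the nearest cells. Between days, the 36 and 71 genes became 650 and 448 with the 10 UMI floor and 14 and 29 at 100 CPM, and the higher count was 61 after thinning. Of 1093 recomputed values of genes called at 2-fold, 1057 kept the direction and at least 2-fold, and 2 turned. These were Myl9 against the nearest cells, at 0.27 and 0.35, since that comparison leaves out contractile cells. No paired analysis was possible because each day had 1 library. Depth limits genes below 20 CPM, which were not compared.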

Other observations

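Among the genes lower at day 14 in members were 3 imprinted genes, picked for being lower, so they say nothing of imprinted genes as a group. H19 was at 945 and 386 CPM, Peg3 at 1593 and 681 CPM and Zim1 at 200 and 67.4 CPM, with log2 ratios of day 14 over day 10 of -1.29, -1.23 and -1.57. The other Aspn-high cells had -1.02, -1.24 and -1.35, and the chondrocytes had -1.28, -0.82 and -0.93.

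The same holds for 3 genes known to respond to interferon, which were picked for being lower at day 14. Ifi27l2a was at 114 and 17.3 CPM, Bst2 at 395 and 130 CPM and Isg15 at 22.7 and 7.47 CPM, for log2 ratios of -2.72, -1.60 and -1.60 in members and -2.46, -1.63 and -2.01 in the other Aspn-high cells.

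Hsd11b2, the enzyme that inactivates glucocorticoids, was at 36.1 against 4.62 CPM at day 10 and 31.4 against 7.48 CPM at day 14 in members and other Aspn-high cells, for log2 ratios of 2.97 (2.64 to 3.30) and 2.07 (1.86 to 2.28). Ptgfr, the prostaglandin F receptor, was at 30.0 against 13.0 CPM and 42.6 against 16.9 CPM. Both fell below the 50 CPM that the rule for named genes asked for, and were picked after their values were seen.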
